A study of Bos taurus with 8 samples.

Results

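The 7 B4GALT galactosyltransferase genes, B4GALT1 to B4GALT7, were followed together with UGCG and ST3GAL5, the genes of the enzymes just before and just after the galactose step of glycosphingolipid synthesis, in bovine uterine epithelial cells given progesterone. These 9 genes were found by symbol among the 28709 genes of the deposited table, and all 9 had enough reads to be tested. The set was chosen by the CPM values of B4GALT5, which were higher with progesterone than with DMSO, so that difference is given as a description and not as a test. BUTE cells, an immortalized wild-type line established from the uterine epithelium of 1 Holstein cow, received 10 µM progesterone (4 libraries) or the vehicle DMSO (4 libraries) for 24 h. All cells, vehicle cells included, had first spent 24 h without serum or steroids and had insulin-like growth factor 1 in the medium, at 50 ng/ml during treatment. Poly(A) RNA was then sequenced.

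B4GALT enzymes sit in the Golgi apparatus and move galactose from UDP-galactose onto a growing sugar chain. From work mainly in human and mouse, B4GALT1 to B4GALT4 are known to act on N-acetylglucosamine, mostly of glycoproteins, which gives N-acetyllactosamine. B4GALT5 and B4GALT6 galactosylate glucosylceramide to lactosylceramide, and B4GALT7 adds the first galactose of the linker that joins glycosaminoglycans to proteoglycans. UGCG makes the glucosylceramide, and ST3GAL5 adds sialic acid to lactosylceramide to give GM3, from which most gangliosides derive. In uterine epithelium such sugar chains form part of the apical glycocalyx.

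Libraries held between 23810861 and 32509786 estimated counts. They are named after the numbers in the column names, DMSO R1, R3, R7 and R9 and progesterone R1, R2, R3 and R6, which could not be matched to the labelled replicates. Nothing in the labels says that they came from separate cultures, so p-values measure only the spread between these libraries. DMSO R7 and R9 stood apart. Their log2 profiles correlated with the other 6 libraries at 0.949 to 0.962 across genes, against 0.983 to 0.992 among those 6, so results are also given without this outlying pair. The epithelial keratins KRT8 and KRT19 averaged 1739 and 471 CPM with progesterone and 2480 and 446 CPM with DMSO. KRT18 averaged 1.43 CPM with progesterone and 4.05 CPM with DMSO. EPCAM averaged 0.426 CPM with progesterone and 1.42 CPM with DMSO, and CLDN4, CLDN7 and GRHL2 averaged below 0.1 CPM in both groups. The mesenchymal marker VIM averaged 6828 CPM with progesterone and 6357 CPM with DMSO. Of the leukocyte markers, PTPRC was at 0 in every library, and CD3E and CSF1R did not exceed 0.204 CPM in any. CD14 averaged 9.75 CPM with progesterone and 7.25 CPM with DMSO. The stromal collagens COL1A1 and COL1A2 averaged 1697 and 3267 CPM with progesterone and 3953 and 5292 CPM with DMSO. DCN and TWIST2 were, like VIM, higher on average with progesterone, and the other stromal markers were lower. Summed over 9 stromal fibroblast markers the range was 12080 to 13270 CPM with progesterone, 19010 to 20540 CPM in DMSO R7 and R9, and 13270 to 13560 CPM in DMSO R1 and R3. Over 5 smooth muscle markers it was 1572 to 2108 CPM with progesterone, 2877 to 2920 CPM in DMSO R7 and R9, and 2092 to 2346 CPM in DMSO R1 and R3. Over 10 epithelial markers the range was 1740 to 2658 CPM with progesterone and 2821 to 3075 CPM with DMSO. KRT8 made up most of the epithelial sum in every library. KRT7, KRT19, CDH1 and CLDN7 were higher on average with progesterone. KRT8, KRT18, EPCAM, CLDN4, ESRP1 and GRHL2 were lower. Of the 10, KRT8 alone did not overlap between groups. The part of these marker levels in the results below was not tested. In bulk libraries of this kind a change in the share of cells that make an RNA and a change in RNA per cell cannot be told apart.

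Values below are CPM, estimated counts scaled to 1 library size with TMM factors, and compare 1 gene between libraries. Levels of different genes are not compared, because no transcript lengths were used. Fold changes are progesterone over DMSO.

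B4GALT5 (Entrez Gene 282407, chromosome 13), a lactosylceramide synthase, was at 176, 171, 207 and 151 CPM in progesterone R1, R2, R3 and R6. It was at 82.5, 102, 86.95 and 83.6 CPM in DMSO R1, R3, R7 and R9. Every progesterone library lay above every DMSO library, and the vehicle pair that stood apart for other genes was level with DMSO R1 here. The means were 176 ± 23.3 CPM with progesterone and 88.8 ± 9.04 CPM with DMSO (SD, n = 4 each), a 1.99-fold difference (log2 fold change 0.99 ± 0.11 SE, 95% interval 0.74 to 1.24). Without the outlying pair the log2 fold change was 0.95 ± 0.13. The spread within progesterone, with R6 lowest and R3 highest, was 0.46 on the log2 scale. Because the set was chosen for this difference, its SE and interval are a description and are not read as a test.

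B4GALT6 (524460, chromosome 24), the other lactosylceramide synthase, was high in other libraries than B4GALT5. It was at 2.08, 1.59, 1.72 and 0.951 CPM in progesterone R1, R2, R3 and R6, and at 1.77, 1.25, 7.19 and 5.59 CPM in DMSO R1, R3, R7 and R9. Only DMSO R7 and R9 were high, while DMSO R1 and R3 lay within the range of progesterone. The log2 fold change of -1.31 ± 0.53 SE with 8 libraries did not pass the threshold (edgeR quasi-likelihood test over all genes, adjusted p = 0.155) and turned to 0.09 ± 0.34 without the outlying pair. Its mean was 4.23-fold higher in DMSO R7 and R9 than in DMSO R1 and R3, whereas B4GALT5 differed 1.08-fold, lower in R7 and R9. These values rest on 23.1 to 67.6 estimated counts in 6 libraries, and on 212 and 148 in DMSO R7 and R9.

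UGCG (514357, chromosome 8), which makes the substrate of both synthases, was at 30.6, 32.1, 33.03 and 27.8 CPM in progesterone R1, R2, R3 and R6. In DMSO R1, R3, R7 and R9 it was at 30.7, 25.7, 21.8 and 19.4 CPM. The groups overlapped, since DMSO R1 was level with progesterone R1, and DMSO R7 and R9 were lowest. The log2 fold change was 0.34 ± 0.14 SE (95% interval 0.03 to 0.65, edgeR adjusted p = 0.159) and 0.14 ± 0.11 without the outlying pair. Leaving out DMSO R1 alone brought it to 0.47 and past the threshold (edgeR adjusted p = 0.0392). In that fit 1782 of 13700 genes passed, beside 359 of 13557 with all 8 libraries.

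ST3GAL5 (404164, chromosome 11), the GM3 synthase, was at 19.1, 18.9, 18.4 and 17.3 CPM in progesterone R1, R2, R3 and R6, against 16.1, 16.1, 15.5 and 17.5 CPM in DMSO R1, R3, R7 and R9. The groups met at progesterone R6, which was just below DMSO R9. With a log2 fold change of 0.17 ± 0.10 SE (95% interval -0.04 to 0.39, and 0.21 ± 0.11 without the outlying pair), it varied least of all 9 genes between the DMSO libraries, with a coefficient of variation of 5.22%. Its 2 DMSO pairs differed 1.03-fold, higher in R7 and R9.

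**Figure D1:**
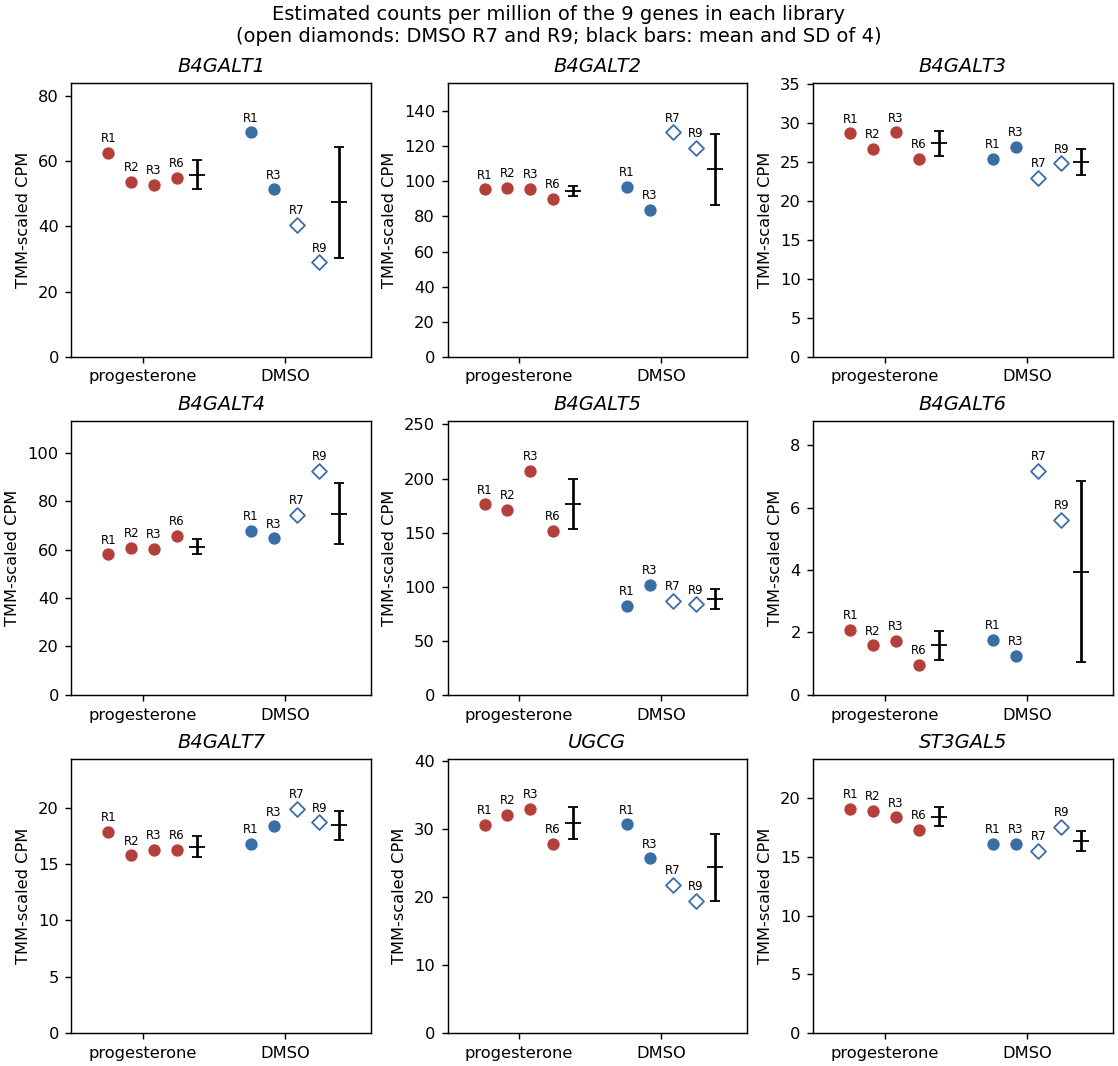
TMM-scaled CPM (vertical axes, each from 0) of the 9 genes in 4 progesterone libraries (red) and 4 DMSO libraries (blue, with open diamonds for R7 and R9); black bars are the mean and SD. For B4GALT5 all progesterone points, 151 CPM and above, lie over all DMSO points, 102 CPM and below, while for B4GALT6 only DMSO R7 and R9 are high.

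Among the enzymes that act mostly on glycoproteins, B4GALT1, B4GALT2 and B4GALT4 varied more between DMSO libraries than between progesterone libraries. Their coefficients of variation were 8.05%, 3.10% and 5.34% with progesterone and 35.8%, 18.9% and 16.8% with DMSO. For B4GALT3 they were close, at 5.94% with progesterone and 6.58% with DMSO. Outside these enzymes, B4GALT6 and UGCG also varied more with DMSO, at 73.4% and 20.2%, beside 29.7% and 7.45% with progesterone. B4GALT5 varied less with DMSO, at 10.2% beside 13.2% with progesterone, and B4GALT7 and ST3GAL5 were close. B4GALT1 (281781, chromosome 8), which also makes lactose when bound to alpha-lactalbumin in the mammary gland, was at 62.5, 53.6, 52.6 and 54.8 CPM in progesterone R1, R2, R3 and R6. It was at 68.8, 51.3, 40.4 and 28.9 CPM in DMSO R1, R3, R7 and R9, so the DMSO libraries spanned both the highest and the lowest value. Its log2 fold change of 0.24 ± 0.22 SE turned to -0.09 ± 0.12 without the outlying pair, and the mean of DMSO R1 and R3 was 1.73-fold that of R7 and R9. LALBA, the gene of alpha-lactalbumin, was below the filter and did not exceed 0.0341 CPM in any library.

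B4GALT2 (100125390, chromosome 3) was at 95.4, 96.3, 95.9 and 90.1 CPM in progesterone R1, R2, R3 and R6, against 96.9, 83.9, 128 and 119 CPM in DMSO R1, R3, R7 and R9. DMSO R7 and R9 were above all other libraries, and the remaining 6 lay within a narrow range. The log2 fold change was -0.18 ± 0.12 SE with 8 libraries and turned to 0.08 ± 0.09 without the outlying pair.

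B4GALT4 (511328, chromosome 1) was at 58.0, 60.9, 60.5 and 65.8 CPM in progesterone R1, R2, R3 and R6. It was at 67.8, 64.7, 74.3 and 92.7 CPM in DMSO R1, R3, R7 and R9. Only progesterone R6 reached into the DMSO range, and DMSO R9 was highest. The log2 fold change of -0.29 ± 0.11 SE (95% interval -0.54 to -0.03) did not pass over all genes (edgeR adjusted p = 0.148) and was -0.10 ± 0.09 without the outlying pair.

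B4GALT3 (515771, chromosome 3) was at 28.6, 26.7, 28.8 and 25.4 CPM in progesterone R1, R2, R3 and R6, against 25.4, 26.9, 22.9 and 24.8 CPM in DMSO R1, R3, R7 and R9. The groups overlapped through progesterone R2 and R6, and the log2 fold change was 0.13 ± 0.09 SE, or 0.08 ± 0.10 without the outlying pair. B4GALT7 (507559, chromosome 7), the proteoglycan linker enzyme, was at 17.9, 15.8, 16.3 and 16.3 CPM in progesterone R1, R2, R3 and R6 and at 16.8, 18.4, 19.9 and 18.7 CPM in DMSO R1, R3, R7 and R9. DMSO R1 and progesterone R1 crossed over. Its log2 fold change was -0.16 ± 0.10 SE, and -0.07 ± 0.12 without the outlying pair.

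In all, 1 of the 9 genes, B4GALT5, was past an adjusted p of 0.05 over all genes tested, where 2.65% of 13557 genes were. Because the set was chosen for B4GALT5, nothing is read from that count. The other 8 had edgeR adjusted p between 0.148 and 0.504, and 3 of them (B4GALT4, B4GALT6 and UGCG) had an unadjusted p under 0.05, as did 26.8% of all genes tested. Groups did not overlap for B4GALT5 alone, against 16.2% of genes tested. With B4GALT5 included, the median log2 fold change of the 9 genes was 0.13, with 5 above and 4 below 0, beside -0.01 for all genes tested. Without the outlying pair the median was 0.08 beside 0.01 for all genes, with 6 above 0. There too 1 of the 9, B4GALT5, was past the threshold, beside 1.18% of 13764 genes. Nothing is read from that count, from the lack of overlap, or from the medians and directions of the 9 genes, because all of them include B4GALT5.

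**Figure D2:**
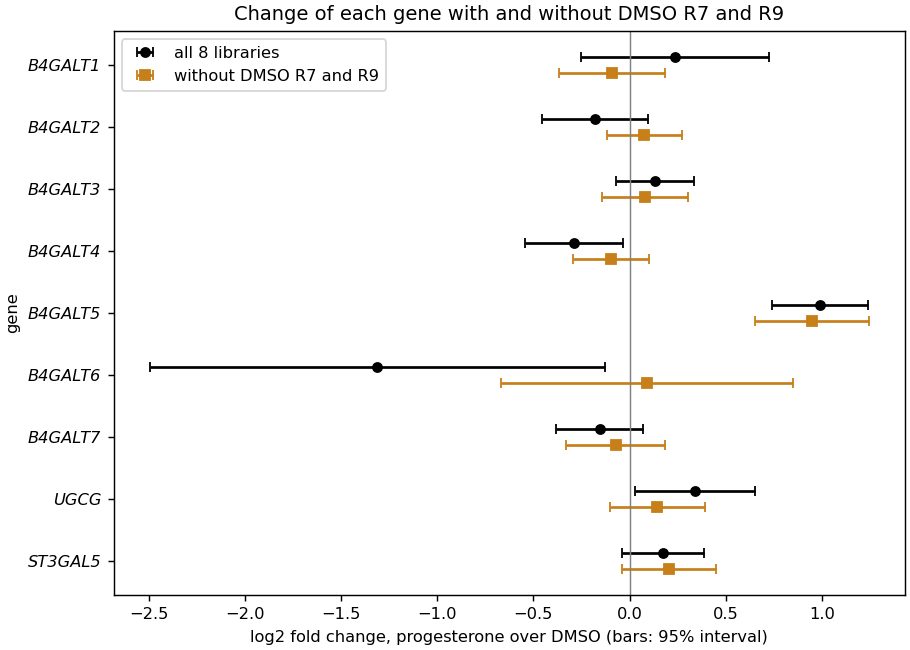
Log2 fold change of each gene, progesterone over DMSO (horizontal axis, 95% intervals), with all 8 libraries (black) and without DMSO R7 and R9 (orange). B4GALT5, for which the set was chosen, stays near 1, at 0.99 and 0.95, and its intervals are not read as a test. B4GALT6 moves between -1.31 and 0.09, and B4GALT1 and B4GALT2 change side.

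Between the 2 pairs of DMSO libraries, which the labels do not distinguish, 2 of the 9 genes differed by more than 1.5-fold, B4GALT6 (higher in R7 and R9) and B4GALT1 (lower in R7 and R9). Folds here are ratios of mean CPM, and over all genes tested the share was 22.9%. B4GALT2 was 1.37-fold and B4GALT4 1.26-fold higher in R7 and R9, and UGCG was 1.37-fold lower there. B4GALT3, B4GALT5, B4GALT7 and ST3GAL5 differed by at most 1.099-fold. This is a description of libraries picked for standing apart, with no test.

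The pattern of B4GALT5 over the 8 libraries was set beside that of 12536 other genes with a mean of at least 1 CPM, as the root mean square difference of log2 CPM centred on each gene's own mean. The 5 nearest genes were CSKMT, a methyltransferase of mitochondrial citrate synthase (0.11), GPX1, a glutathione peroxidase (0.11), ZFP36, an mRNA decay factor (0.12), SREBF1, a transcription factor of lipid synthesis (0.12), and EPAS1, a hypoxia-inducible factor (0.13). The median over those genes was 0.55. Being near B4GALT5 fixes their direction, so their differences are given without a test. The fold was 1.89 for CSKMT, 2.03 for GPX1, 1.86 for ZFP36, 1.77 for SREBF1 and 2.11 for EPAS1, and between 1.65 (SREBF1) and 1.94 (EPAS1) without the outlying pair. Of the other 8 genes of the set, UGCG was nearest, at rank 903 with 0.37, and B4GALT6 farthest, at rank 12289 with 1.28.

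**Figure D3:**
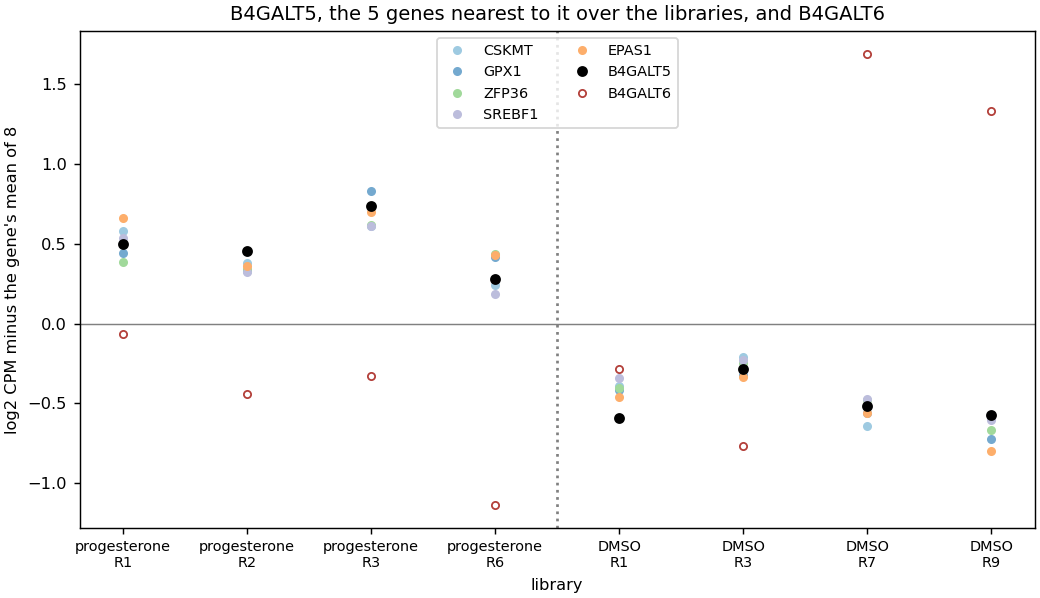
Log2 CPM minus the gene's mean of 8 libraries (vertical axis) in each library (horizontal axis, progesterone left of the dotted line, DMSO right of it) for B4GALT5 (black), its 5 nearest genes (colours) and B4GALT6 (open red). B4GALT5 and its neighbours are above 0 in progesterone and below 0 in DMSO, whereas B4GALT6 is at 1.69 and 1.33 in DMSO R7 and R9 and below 0 elsewhere.

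The enzymes and carriers around these steps were read from 6 lists of 82 genes, of which 70 could be tested. Of the 70, 4 rose, 0 fell and 66 did not pass in edgeR (5.71% called, beside 2.65% of all genes, 1.69% higher and 0.959% lower). Before adjustment 19 were under 0.05 (27.1%, beside 26.8% of all genes), and DESeq2 called 11 (15.7%, beside 13.5% of all genes). The median log2 fold change of the 70 was 0.05, beside -0.01 for all genes. Progesterone and DMSO did not overlap at 14 of the 70 genes (20%, beside 16.2% of all genes), 11 higher and 3 lower, beside 7.95% and 8.22% of all genes. The 4 genes that rose were MGAT4A and ST3GAL4, of glycoprotein sugar chains, B3GALT4, of gangliosides, and CERK, which takes ceramide in another direction.

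MGAT4A (282276, chromosome 11) encodes a Golgi enzyme that starts a further branch on N-glycans, whose N-acetylglucosamine the B4GALT enzymes can galactosylate. It was at 71.0, 71.2, 59.7 and 55.7 CPM in progesterone R1, R2, R3 and R6, against 40.9, 41.9, 38.8 and 37.7 CPM in DMSO R1, R3, R7 and R9. All progesterone libraries were above all DMSO libraries. Its log2 fold change was 0.69 ± 0.10 SE, a rise of 1.62-fold with an edgeR adjusted p of 0.0140, and 0.65 ± 0.12 without the outlying pair (adjusted p = 0.0332). It passed with 6 of 8 single libraries left out, and missed without progesterone R1 (0.0525) or progesterone R2 (0.0520).

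ST3GAL4 (404163, chromosome 29) adds sialic acid to the galactose that ends glycoprotein chains. It was at 57.3, 53.3, 53.8 and 56.3 CPM in progesterone R1, R2, R3 and R6 and at 42.1, 36.6, 31.7 and 31.9 CPM in DMSO R1, R3, R7 and R9. The groups were apart, with DMSO R7 and R9 lowest. It rose 1.55-fold, by 0.63 ± 0.10 SE on the log2 scale with an edgeR adjusted p of 0.0207, and by 0.50 ± 0.10 without the outlying pair (adjusted p = 0.0380). Of the 15 N-glycan genes tested, the other 13 did not pass. FUT8, the core fucosyltransferase, had a log2 fold change of -0.39 ± 0.09 SE (edgeR adjusted p = 0.0561, and -0.46 without the outlying pair) and did not overlap between groups. B3GNT2, which alternates with B4GALT enzymes to extend N-acetyllactosamine chains, was at 0.33 ± 0.08 (edgeR adjusted p = 0.0627, and 0.36 without the outlying pair), also without overlap. Both were picked out after their values were seen.

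B3GALT4 (768038, chromosome 23), which adds the outer galactose of gangliosides such as GM1, was at 18.9, 16.8, 18.3 and 16.7 CPM in progesterone R1, R2, R3 and R6. It was at 12.4, 12.0, 10.3 and 8.39 CPM in DMSO R1, R3, R7 and R9. No library of either group reached the other. It rose 1.64-fold, by 0.71 ± 0.14 SE on the log2 scale with an edgeR adjusted p of 0.0331. The call was lost without the outlying pair, at 0.55 ± 0.12 and an edgeR adjusted p of 0.0607. The other 9 tested genes that extend lactosylceramide did not pass. Among them A4GALT, which adds galactose to lactosylceramide to give globotriaosylceramide, lay highest, at 1.67 ± 0.55 (SE), which missed the threshold (edgeR adjusted p = 0.1005) and was 0.92 without the outlying pair. It was at 0.579 to 1.02 CPM with progesterone and 0.0678 to 0.512 CPM with DMSO, so its groups did not overlap, and it is named here after its values were seen. The sialyltransferase ST3GAL2 had a log2 fold change of 0.37, and 0.01 without the outlying pair. B4GALNT1, the enzyme that turns GM3 towards GM2, was at -0.54, and at 0.08 without the outlying pair. ST8SIA1, the GD3 synthase, was below the filter, with at most 0.331 CPM in progesterone and 0.302 CPM in DMSO.

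CERK (100336737, chromosome 5), the kinase that makes ceramide 1-phosphate, was at 154, 143, 147 and 150.2 CPM in progesterone R1, R2, R3 and R6, against 125, 110.3, 96.0 and 90.0 CPM in DMSO R1, R3, R7 and R9. The groups were apart, and DMSO R7 and R9 were lowest. It rose 1.41-fold, by 0.49 ± 0.10 SE on the log2 scale with an edgeR adjusted p of 0.0417. The call was lost without the outlying pair, at 0.35 ± 0.09 (0.0890), and with library size alone as the scaling (0.0569). Of the 19 ceramide genes tested the other 18 did not pass. CERT1 (COL4A3BP in the table), which carries ceramide to the Golgi for sphingomyelin synthesis, had a log2 fold change of 0.26 ± 0.09, or 0.35 without the outlying pair. The sphingomyelin synthases SGMS1 and SGMS2 were at -0.10 and -0.16, and without the outlying pair SGMS1 turned to 0.11 and SGMS2 was at -0.14. PLEKHA8, which takes glucosylceramide onward for lactosylceramide synthesis, was at -0.03, and at 0.27 without the outlying pair.

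None of 7 tested genes of UDP-galactose supply passed in edgeR, and 1 had an unadjusted p under 0.05. That gene was SLC35A2, the carrier of UDP-galactose into the Golgi, at 28.8 ± 2.28 CPM with progesterone and 35.9 ± 4.75 CPM with DMSO (SD, n = 4 each, log2 fold change -0.32 ± 0.11 SE, and -0.16 without the outlying pair). GALK1, the galactokinase, averaged 105 ± 7.54 CPM with progesterone and 86.3 ± 17.6 CPM with DMSO, its log2 fold change being 0.28, or 0.07 without the outlying pair. Of 14 genes of glycosphingolipid breakdown none passed in edgeR, and 4 had an unadjusted p under 0.05. GBA2, a non-lysosomal glucosylceramidase, had a log2 fold change of 0.39 ± 0.15 SE (0.14 without the outlying pair). None of the 5 proteoglycan linker genes passed or had an unadjusted p under 0.05. The xylosyltransferases that start the linker, XYLT1 and XYLT2, were at -1.59 ± 0.73 and -0.15 ± 0.09, and without the outlying pair XYLT1 turned to 0.51 and XYLT2 was at -0.17. In these 3 lists DESeq2 called 0 supply genes, 1 breakdown gene and 0 linker genes, and limma voom called 0.

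**Figure D4:**
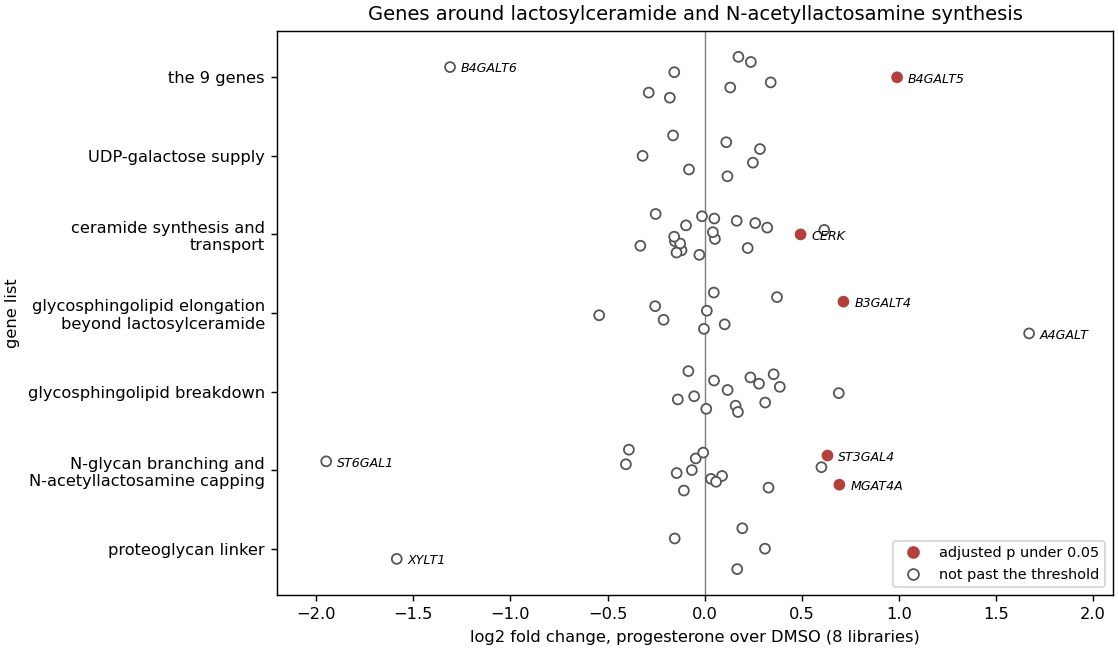
Log2 fold change, progesterone over DMSO (horizontal axis), of the 9 genes and of the tested genes of 6 surrounding lists (rows; points are spread vertically to be seen). Filled points, past an adjusted p of 0.05, are B4GALT5 (0.99), CERK (0.49), B3GALT4 (0.71), ST3GAL4 (0.63) and MGAT4A (0.69), all higher with progesterone. The set was chosen for B4GALT5, so nothing is read from its filled point.

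The count of 4 depended on single libraries, as did the count over all genes tested. Leaving out 1 at a time, edgeR called 12 of 71 of these genes without DMSO R1 and 5 of 71 without DMSO R3. In edgeR 1 passed in each fit without DMSO R7, DMSO R9, progesterone R3 or progesterone R6. It called 0 without progesterone R1 or R2, fits in which MGAT4A had the adjusted p of 0.0525 and 0.0520 given above. Over all genes, 1782 of 13700 were called without DMSO R1 and 795 of 13745 without DMSO R3. Each remaining left-out fit called between 42 and 82 genes, beside 359 of 13557 with all 8 libraries. ST3GAL4, B3GALT4 and CERK each passed in 2 of these 8 fits, those without DMSO R1 or R3, and their highest adjusted p was 0.0711 for ST3GAL4, 0.0970 for B3GALT4 and 0.122 for CERK in edgeR. With both libraries of the outlying pair left out 2 of 70 were called (2.86%, beside 1.18% of all genes), MGAT4A and ST3GAL4.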

How the data were processed

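Stranded poly(A) libraries of 8 samples were used. The authors deposited 1 table of estimated counts per gene, called length-normalized in its name. Salmon 1.4.0, bcl2fastq and the build ARS-UCD1.2 appear in the submitters' processing notes. The step from transcripts to genes is not stated there. Chromosomes are those of the table. Symbols older than those searched were matched through the identifiers of a RefSeq gene table (ARS-UCD2.0), which held 26025 of 28709 genes.

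Estimated counts were rounded. Genes kept by filterByExpr (13557) were scaled by TMM and tested between progesterone and DMSO with edgeR 4.0.16 (quasi-likelihood, robust, two-sided, group as the only term, R 4.3.3), with Benjamini-Hochberg adjustment over all genes kept and a threshold of 0.05. The standard error is the log2 fold change over the root of F. Log2 CPM used a prior count of 2. The test was tried on simulated counts.

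The 9 genes, the lists and the alternatives were chosen with earlier results of these data known. Named are the 9 genes, list genes past the threshold, the 2 with the smallest p of lists with none and the 5 nearest B4GALT5; further list genes were chosen after their values were seen, and 1 gene the rule allows is not reported here. Alternatives were other scalings and filters, DESeq2 1.42.0, limma voom 3.58.1, unrounded counts, a term for DMSO R7 and R9, a block by column number, and leaving out libraries.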

Additional observations from a re-analysis of the deposited data

Results flagged for a closer look

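Among 24 genes looked at in both groups, 1 value stood far from the rest of its group. B4GALT2 in progesterone R6 was at 90.1 CPM, with the other progesterone libraries between 95.4 and 96.3 CPM, a gap of 0.854 of the group's range. The gap is small beside the DMSO range of 83.9 to 128 CPM for the same gene. Chance flags about 1 in 20 groups, and 48 groups were looked at.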

How the results depend on the processing

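The log2 fold change of B4GALT5, for which the set was chosen, lay between 0.90 and 1.07 over the 18 alternatives. With all 8 libraries 359 genes passed; 1830 did with DESeq2, 162 without DMSO R7 and R9, and between 42 and 1782 with 1 library left out. The single values were 1782 and 795 without DMSO R1 or R3, 51 and 82 without DMSO R7 or R9, and for the progesterone libraries 42 (R1), 48 (R2), 76 (R3) and 53 (R6). Of the 70 pathway genes tested, 4 passed, and 11 did with DESeq2 and 2 without R7 and R9. With 1 library left out, between 0 and 12 of 70 or 71 passed. The 12 were without DMSO R1, where 1782 of 13700 genes passed. The log2 fold changes of B4GALT1, B4GALT2 and B4GALT6 turned to -0.091, 0.077 and 0.088 without R7 and R9 and to -0.105, 0.063 and 0.078 with a model term for them; the cause was not tested. With the column number as a replicate block they were -0.054, 0.085 and 0.33, and 2531 of 13557 genes and 19 of 70 pathway genes passed. That fit leaves 1 residual degree of freedom. Only the numbers 1 and 3 occur in both groups, with correlations of 0.226 and 0.210 between the same-numbered libraries' deviations from their group means. Crossed, DMSO R1 with progesterone R3 was at -0.0675 and DMSO R3 with progesterone R1 at -0.0111. Whether the numbers mark a pairing was not tested. They could not be matched to the labelled replicates, so the numbers are not taken to pair the libraries. The other 5 genes kept their direction in all 18, and UGCG passed without DMSO R1. B4GALT6 had 23.1 estimated counts in its lowest library, the smallest count behind any of the 9 genes.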

Other observations

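Of the 70 surrounding genes tested, 13 differed by more than 1.5-fold in mean CPM between the 2 pairs of DMSO libraries, 3 higher and 10 lower in R7 and R9 (18.6%, beside 22.9% of all genes tested). XYLT1, which starts the proteoglycan linker, averaged 20.9 CPM in DMSO R7 and R9 and 2.78 CPM in DMSO R1 and R3. ST6GAL1, which caps N-acetyllactosamine with sialic acid in another linkage than ST3GAL4, averaged 3.85 CPM in R7 and R9 and 0.553 CPM in R1 and R3. B4GALNT1 averaged 6.01 CPM in R7 and R9 and 2.92 CPM in R1 and R3. Like B4GALT6, these 3 were high in this pair of vehicle libraries, while the progesterone range of each lay below the R7 and R9 mean.

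The genes lower in R7 and R9 included ARSA, the lysosomal arylsulfatase that removes sulfate from sulfatide, with 19.7 CPM in R7 and R9 and 45.9 CPM in R1 and R3. ST3GAL2 averaged 18.7 CPM in R7 and R9 and 34.9 CPM in R1 and R3. B3GALT6, the linker enzyme that follows B4GALT7, averaged 6.94 CPM in R7 and R9 and 12.6 CPM in R1 and R3. The libraries were paired because they stood apart in the data, so these are values of 2 and 2 libraries without a test.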
